A study of Mus musculus with 8 samples.

Results

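The genes described here are 45 genes of the WNT pathway, chosen by name: 11 ligands, 12 receptors and co-receptors, 9 inhibitors, 7 genes of signal transduction and 6 targets or feedback genes. Of the 45, 44 were measured, among 17097 genes in all; Tcf7 was not analysed here. Their transcripts were compared between bulge cells of G9a cKO mice and of G9a WT mice, with 4 Affymetrix mouse arrays in each group. Here cKO stands for conditional knockout, and G9a is a histone methyltransferase. The replicates of a group were taken as separate animals, which the sample titles do not number. Both genotypes had been treated on shaved back skin with the mutagen DMBA and the tumour-promoting agent TPA once a week for 6 weeks, starting when the mice were 8 weeks old, and their labelled age is 15 weeks. The design text describes the skin as pre-neoplastic, and the question was which transcripts differ with genotype at that stage. The sources used here do not give the promoter or Cre line behind the knockout, the deleted part of the gene or the way the cells were isolated.

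WNT proteins are secreted, lipid-modified ligands that bind Frizzled receptors together with the co-receptors LRP5 or LRP6. In the branch that runs through beta-catenin, binding stops the complex of AXIN, APC and GSK3 from marking beta-catenin for degradation, and beta-catenin then activates transcription with TCF and LEF proteins. In the hair follicle this branch drives stem cells into growth, and the resting bulge is known for its secreted WNT inhibitors.

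All values are log2 expression per probe set, made by the authors with RMA, a method that corrects background, normalizes between arrays and summarises probes. A log2 change is the cKO mean minus the WT mean. Each gene was read from its probe set with the highest mean, tested with limma over all genes, and called at a Benjamini-Hochberg adjusted p under 0.05. A gene is said to lie near background here if its mean was under 5.23, as for the lowest 40% of probe sets, where RMA compresses differences. Ehmt2, the gene of G9a, checks the labels: 1 probe set read 6.44, 5.54, 5.80 and 5.64 in cKO replicates 1 to 4 and 9.29, 8.89, 8.93 and 9.15 in the WT arrays. The groups were far apart (log2 change -3.21, limma adjusted p among all probe sets = 6.64e-05), with cKO replicate 1 the highest cKO array, while a second, with the higher mean over all arrays and so used for Ehmt2 in the fit over genes, read 8.41 in both groups; where either lies relative to the deleted part was not tested. All 10 bulge keratinocyte markers lay above the near-background limit, such as Krt15 at 12.35 in cKO and 12.26 in WT. None of the 10 passed, and 7 had a log2 change below 0 and 3 above it. The largest change was that of Nfatc1, at -0.35 without overlap (limma adjusted p = 0.0566). Of the other cell types, 7 of 10 fibroblast, 7 of 8 macrophage and 3 of 5 measured T cell markers lay below it, while 5 of 7 melanocyte markers and all 6 measured markers of interfollicular and infundibular keratinocytes lay above it. Of these 6, Ly6d, a keratinocyte surface protein gene, fell 1.30-fold (limma adjusted p = 0.0218), where 0.836% of all genes fell. The other 5 did not pass. Krt79 had the largest change of the 6, at -0.68 with overlapping groups (limma adjusted p = 0.249). The 4 with a log2 change above 0 had small ones, from 0.00 to 0.08. The mean deviation of the 6 from their overall means ran from -0.23 to 0.016 in the cKO arrays and from 0.0097 to 0.15 in the WT arrays. WT replicate 4 stood apart from the other WT arrays, at 2.92 on the first principal component against 10.6 to 12.7. Among the cKO arrays, replicate 1 lay at -5.95 and the others between -12.2 and -9.60. Immediate early genes in WT replicate 4 averaged -0.17 from their overall mean, within the cKO range of -0.28 to -0.085 and below the other WT arrays at 0.21 to 0.40. Members whose call or overlap turned on WT replicate 4 or cKO replicate 1 are given below with and without that array, and the part of the immediate early genes in them was not tested.

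Of the 44 measured genes, 1 passed the threshold: Sfrp2, a secreted WNT inhibitor, fell in cKO. Over all genes tested, 2.76% passed in either direction and 0.836% passed as lower in cKO, so a single call among 44 was near the background. The cKO and WT values did not overlap in 5 members, 3 higher and 2 lower in cKO, where 8.24% of all genes did not overlap (5.15% higher and 3.09% lower). A limma p under 0.05 before adjustment was found for 9 members (20.5%, against 13.7% of all genes). The median log2 change was 0.0072 over the members and 0.0027 over all genes, and the median of its size was 0.057 and 0.052. For the 43 genes that did not pass, the 95% interval of the limma fit left room for a difference of up to 1.74-fold. Beside Sfrp2, the intervals of Apcdd1, Sostdc1 and Lef1 reached past 1.5-fold, and those of the remaining 40 genes did not. Fewer cells of a type and less RNA per cell cannot be told apart in these bulk samples.

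**Figure D1:**
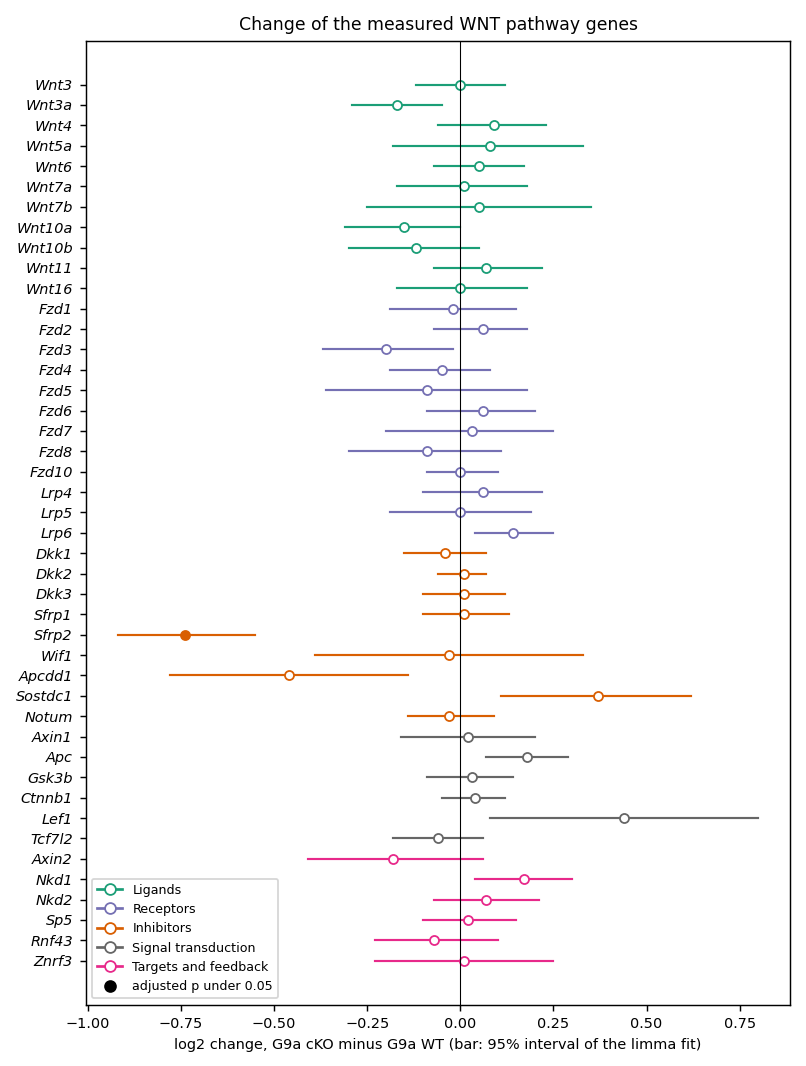
Log2 change (horizontal axis, cKO minus WT) of the 44 measured WNT pathway genes, ordered and coloured by role; points are the limma estimates from 4 against 4 arrays, bars their 95% intervals, and a filled point marks an adjusted p under 0.05. Sfrp2, at -0.74, is the only filled point, and the widest intervals among the rest are those of Wif1, Lef1 and Apcdd1.

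No ligand gene passed the threshold in either direction by limma. Of the 11, 1 had an unadjusted p under 0.05, against 13.7% of all genes. The log2 changes of the 11 ran from -0.17 to 0.09, and 5 of them lay near background. The gene with that p was Wnt3a, a ligand of the beta-catenin branch. It read 4.85, 5.03, 5.03 and 5.08 in cKO and 5.20, 5.18, 5.16 and 5.13 in WT. Every cKO array was below every WT array, but the gap was small and near background (log2 change -0.17, SE 0.06, limma adjusted p = 0.184). Wnt10a, a ligand required for hair and tooth development, read 7.64, 7.69, 7.51 and 7.51 in cKO and 7.77, 7.76, 7.85 and 7.59 in WT. The groups overlapped through WT replicate 4, the lowest WT array (log2 change -0.15, SE 0.07, limma adjusted p = 0.382), and without that array the log2 change was -0.20 (limma adjusted p = 0.128). Wnt10b, a ligand expressed in growing follicles, read 4.80, 4.64, 4.94 and 4.90 in cKO and 4.81, 5.12, 4.91 and 4.93 in WT, with overlapping groups (log2 change -0.12, limma adjusted p = 0.580).

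Wnt7b, a ligand of the epidermis and follicle, varied between animals of 1 genotype more than between genotypes. It read 8.45, 8.32, 7.97 and 8.12 in cKO and 7.90, 8.05, 8.21 and 8.51 in WT (log2 change 0.05, SE 0.14, limma adjusted p = 0.942). Its second probe set read 7.70 ± 0.24 in cKO and 7.69 ± 0.26 in WT (mean ± SD, n = 4). Wnt4, which signals in several tissues with or without beta-catenin, read 8.56 ± 0.09 in cKO against 8.47 ± 0.09 in WT (limma adjusted p = 0.656). Wnt5a, the best known ligand of the beta-catenin independent branch, was near background and spread over the cKO arrays, at 4.45, 4.43, 3.94 and 4.03, around WT values of 4.02 to 4.26. Wnt6, Wnt11 and Wnt16 lay above background and had log2 changes of 0.05, 0.07 and 0.00, with limma adjusted p of 0.819, 0.717 and 0.994. Wnt3 and Wnt7a, both near background, had limma adjusted p of 0.995 and 0.991. Wnt6 and Wnt10a are direct neighbours among the protein-coding genes of the RefSeq table of GRCm38.p6, and their log2 changes were 0.05 and -0.15.

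No receptor gene passed in either direction by limma, and 2 of 12 had an unadjusted p under 0.05, against 13.7% of all genes. Lrp6, the co-receptor that takes up the WNT signal with Frizzled, read 9.36, 9.28, 9.24 and 9.39 in cKO and 9.15, 9.16, 9.21 and 9.16 in WT. All cKO arrays were above all WT arrays, by a small margin (log2 change 0.14, SE 0.05, limma adjusted p = 0.187). Lrp5, its paralog, read 8.86 in both groups (SD 0.12 in cKO and 0.15 in WT). Lrp4, a relative that binds secreted WNT inhibitors such as SOSTDC1 and sclerostin, read 7.92 ± 0.06 in cKO against 7.86 ± 0.13 in WT (limma adjusted p = 0.820).

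Among the Frizzled genes, Fzd3, which acts in planar cell polarity and hair patterning, read 9.21, 9.24, 9.47 and 9.25 in cKO and 9.65, 9.54, 9.39 and 9.37 in WT. The groups overlapped because cKO replicate 3 reached the WT range (log2 change -0.20, SE 0.08, limma adjusted p = 0.293). All 5 further probe sets of Fzd3 also had a negative log2 change, from -0.17 to -0.02, and none passed over all probe sets, where 1.77% of probe sets passed. Fzd8 read 5.67, 5.71, 5.65 and 5.97 in cKO and 5.83, 6.03, 5.88 and 5.65 in WT, with overlapping groups (log2 change -0.09, limma adjusted p = 0.766). Fzd5 was low in WT replicate 4 alone, at 6.87 against 7.36 to 7.52 in the other WT arrays and 7.15 to 7.27 in cKO. Its log2 change was -0.09 with all arrays (limma adjusted p = 0.868) and -0.23 without WT replicate 4 (limma adjusted p = 0.0846). Fzd6, the planar polarity receptor that orients mouse hairs, read 9.70 ± 0.12 in cKO and 9.65 ± 0.07 in WT. Fzd1, Fzd2 and Fzd7 had log2 changes of -0.02, 0.06 and 0.03, and limma adjusted p of 0.956, 0.776 and 0.960. Fzd4 and Fzd10, near background, had limma adjusted p of 0.807 and 0.991.

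**Figure D2:**
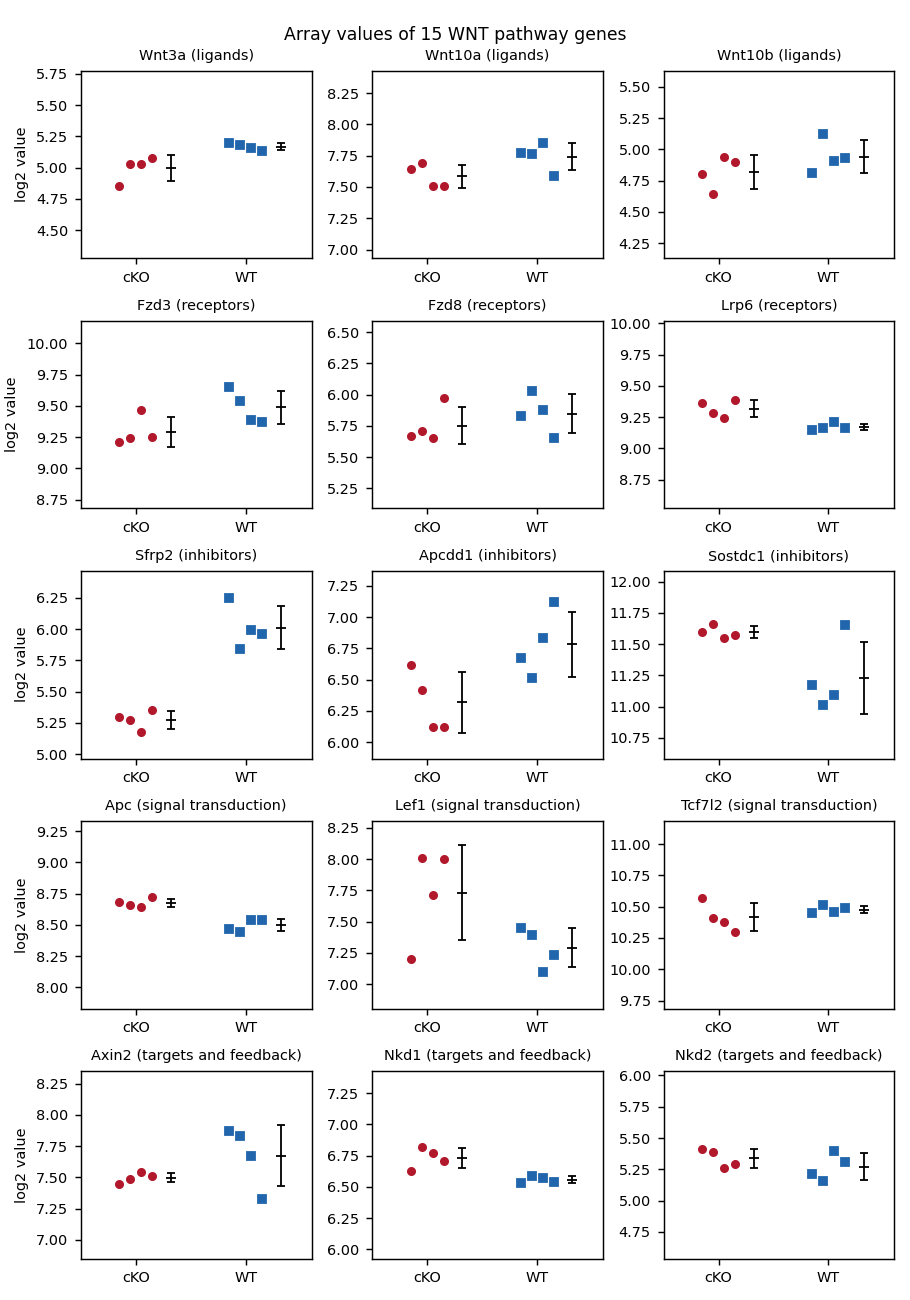
Log2 values of 15 WNT pathway genes, 3 per role, in the 4 cKO arrays (red circles, replicates 1 to 4 from left to right) and the 4 WT arrays (blue squares); black marks are the mean ± SD, and every panel spans 1.5 log2 units. Sfrp2 is the gene with a wide gap between groups, and 1 array lies apart from its own group in Sostdc1 and Axin2 (WT replicate 4) and in Lef1 (cKO replicate 1).

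Among the 9 inhibitors, Sfrp2 fell and none rose by limma, where 0.836% of all genes passed as lower and 1.92% as higher. Of the 9, 3 had an unadjusted p under 0.05, against 13.7% of all genes. Sfrp2 encodes a secreted protein with a Frizzled-like domain that binds WNT ligands. It read 5.30, 5.27, 5.18 and 5.35 in cKO and 6.25, 5.84, 5.99 and 5.96 in WT. The cKO arrays lay close to each other and around the near-background limit, with replicate 3 below it, and the lowest WT array was clear of all of them. The fall was 1.67-fold (log2 change -0.74, SE 0.08, limma adjusted p = 0.00149), with a 95% interval from -0.92 to -0.55 on the log2 scale. Because the groups did not overlap, an exact permutation test over the arrays (two-sided) had to give the smallest p this design allows, 0.0286. It therefore adds nothing to that separation, and Wnt3a, Lrp6, Apc and Nkd1, also without overlap, had the same permutation p. Sfrp2 passed in 8 of 8 fits without 1 array, with log2 changes from -0.79 to -0.66. Only 1 probe set represents it, so no further probe set bears on this value.

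Sfrp2 is also a gene of dermal fibroblasts, so fibroblast markers were set beside it. Of 10 such markers, Col1a1, a collagen gene, fell 1.88-fold (limma adjusted p = 0.00100) and the other 9 did not pass. The mean level of the list ran from 4.60 to 4.76 in cKO and from 4.75 to 4.88 in WT. Without Col1a1 it ran from 4.43 to 4.60 in cKO and from 4.48 to 4.65 in WT. The fibroblast markers Pdgfra and Lum lay near background, at 3.88 and 3.92 for Pdgfra and 3.89 and 3.86 for Lum in cKO and WT. Dcn and Vim lay above the limit, at 5.70 and 5.67 for Dcn and 6.79 and 6.94 for Vim in cKO and WT. The part of fibroblast RNA in the fall of Sfrp2 was not tested.

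The promoter of Sfrp2 is shown because this is the member that passed, and the promoter of Sp5, a direct target of beta-catenin, is shown as a member whose window holds TCF/LEF motifs. Each is the RefSeq window of 300 bases, from 250 before to 50 after the annotated start, 5′ to 3′ in GRCm38.p6, at chr3:83766071-83766370 for Sfrp2 and chr2:70474673-70474972 for Sp5, both on the plus strand. Capitals mark matches to CTTTGAT, to CTTTGTT or to CTTTGAA on either strand.
Sfrp2: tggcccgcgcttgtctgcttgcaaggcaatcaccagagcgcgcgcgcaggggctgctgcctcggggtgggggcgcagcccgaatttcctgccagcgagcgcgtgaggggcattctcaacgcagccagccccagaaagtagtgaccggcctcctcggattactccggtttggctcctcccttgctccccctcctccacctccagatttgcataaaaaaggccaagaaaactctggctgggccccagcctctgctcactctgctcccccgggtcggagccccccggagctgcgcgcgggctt
Sp5: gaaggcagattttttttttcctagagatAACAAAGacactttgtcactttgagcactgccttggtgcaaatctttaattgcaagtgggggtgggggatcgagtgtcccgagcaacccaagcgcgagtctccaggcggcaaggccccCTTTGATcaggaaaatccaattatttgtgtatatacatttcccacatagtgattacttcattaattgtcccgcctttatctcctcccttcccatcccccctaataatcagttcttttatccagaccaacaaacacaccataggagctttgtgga
Sfrp2 had 0 matches in this window and Sp5 had 2. The 3 motifs share the letters CTTTG. In all, 27 members had promoters in the RefSeq table, with 35 windows, of which 6 (17.1%) held a match. Over all 32851 windows of the same length the share was 13.9%. The other members with a match were Wnt3, Wnt11, Fzd7, Dkk1 and Tcf7l2. None of these 6 genes passed the threshold, and a match in these letters is a description and not a bound site.

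Apcdd1 encodes a membrane protein that inhibits WNT signalling at the receptor and is expressed in hair follicles. It read 6.62, 6.42, 6.12 and 6.12 in cKO and 6.67, 6.51, 6.83 and 7.12 in WT. The groups overlapped through cKO replicate 1, which lay within the WT range, and the highest value was that of WT replicate 4 (log2 change -0.46, SE 0.14, limma adjusted p = 0.153). Its further probe sets had log2 changes of -0.39 and -0.38 (limma adjusted p among all probe sets = 0.250 and 0.283). Apcdd1 did not pass in any of the 8 fits without 1 array, where the adjusted p ran from 0.0724 to 0.350. Without WT replicate 4 its log2 change was -0.35 (limma adjusted p = 0.189), and without cKO replicate 1 it was -0.56.

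Sostdc1, the gene of a secreted antagonist of BMP and WNT signals, read 11.60, 11.66, 11.55 and 11.57 in cKO and 11.17, 11.01, 11.09 and 11.65 in WT. The cKO arrays were uniform, and WT replicate 4 lay among them while the other WT arrays lay below (log2 change 0.37, SE 0.11, limma adjusted p = 0.155). Without WT replicate 4 the log2 change was 0.51 and passed (limma adjusted p = 0.000734). The other 7 fits without 1 array gave log2 changes of 0.29 to 0.38, and none of them passed. The second probe set of Sostdc1 read 11.06 ± 0.15 in cKO against 10.67 ± 0.31 in WT (limma adjusted p among all probe sets = 0.227).

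The other 6 inhibitors had log2 changes between -0.04 and 0.01. Wif1, a secreted protein that binds WNT ligands directly and is typical of the resting bulge, differed more between animals than between genotypes. It averaged 9.25 ± 0.28 in cKO, highest at 9.59 in replicate 2, and 9.28 ± 0.31 in WT, where single arrays ran from 8.97 to 9.70 (log2 change -0.03, SE 0.16, limma adjusted p = 0.975). Sfrp1, the close relative of Sfrp2, read 11.63 ± 0.08 in cKO against 11.61 ± 0.08 in WT (limma adjusted p = 0.954), with a 95% interval from -0.10 to 0.13 on the log2 scale. That interval does not overlap the one of Sfrp2. Dkk3, a bulge gene of the Dickkopf family, read 10.64 ± 0.09 in cKO and 10.63 ± 0.06 in WT. Dkk1 and Dkk2, which block the co-receptors, and Notum, an enzyme that removes the lipid of WNT ligands, lay near background, with limma adjusted p of 0.816, 0.971 and 0.911.

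Of the 6 measured genes of signal transduction none passed by limma. An unadjusted p under 0.05 was found for 2 of them, against 13.7% of all genes. Apc, the scaffold of the complex that degrades beta-catenin, read 8.68, 8.66, 8.64 and 8.72 in cKO and 8.47, 8.44, 8.54 and 8.54 in WT. All cKO arrays lay above all WT arrays, within a narrow spread (log2 change 0.18, SE 0.05, limma adjusted p = 0.0948). Its further probe sets had log2 changes of 0.10, 0.09 and 0.24, and none of them passed over all probe sets. Axin1, another scaffold of that complex, had a log2 change of 0.02 (SE 0.08, limma adjusted p = 0.964). Gsk3b, the kinase of the complex, read 10.17 ± 0.07 in cKO against 10.15 ± 0.08 in WT (limma adjusted p = 0.925). The probe set of Gsk3b with the lowest p, chosen after its values were seen, read 7.00 ± 0.06 in cKO and 6.73 ± 0.13 in WT without overlap (limma adjusted p among all probe sets = 0.114). The other 2 further probe sets of Gsk3b had log2 changes of 0.03 and 0.04. Ctnnb1, which encodes beta-catenin, read 11.83 ± 0.07 in cKO against 11.80 ± 0.05 in WT (limma adjusted p = 0.805).

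Lef1, a transcription factor that pairs with beta-catenin and marks the hair germ and matrix, read 7.20, 8.01, 7.71 and 8.00 in cKO and 7.45, 7.39, 7.10 and 7.23 in WT. In 3 cKO arrays it was above every WT array, and in cKO replicate 1 it was below 3 of the 4 WT arrays. Over all arrays it had a log2 change of 0.44 (SE 0.16, limma adjusted p = 0.245), and without cKO replicate 1 the change was 0.62 and passed (limma adjusted p = 0.0161). The same array had the highest Ehmt2 signal of the cKO group, and a link of that signal with Lef1 was not tested. Tcf7l2, another TCF factor, read 10.57, 10.41, 10.38 and 10.30 in cKO and 10.45, 10.51, 10.46 and 10.49 in WT, with overlapping groups (log2 change -0.06, limma adjusted p = 0.737). Its 3 further probe sets also had negative log2 changes, from -0.16 to -0.05.

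Markers of hair germ and matrix cells, a list that includes Lef1, were set beside it. Of 9 measured, 3 rose (Dlx3, Msx2 and Krt71, a keratin gene of the inner root sheath) and none fell, where 1.92% of all genes rose. In 5 of the 9 every cKO array was above every WT array, against 5.15% of all genes. An unadjusted limma p under 0.05 was found for 6 of the 9, against 13.7% of all genes. The list was chosen with earlier results of these data known, so these shares are a description and not a test of it. Hoxc13, a homeobox gene of the hair shaft, had a log2 change of 0.28 without overlap (limma adjusted p = 0.109). The median log2 change over the 9 was 0.23, against 0.0027 over all genes. Without Lef1, the mean deviation of the other 8 from their overall means ran from 0.06 to 0.12 in the cKO arrays and from -0.12 to -0.06 in the WT arrays, and cKO replicate 1 lay at 0.08. The shaft keratin genes Krt31 and Krt35 lay near background in both groups, Krt31 without overlap (log2 change 0.17, limma adjusted p = 0.184), and Shh, a signal of the growing follicle, read 6.24 in cKO and 6.27 in WT. Of the T cell markers, which bear on Lef1 because T cells express it, Thy1 rose 1.48-fold (limma adjusted p = 0.0251), while Cd3e, Cd3g, Cd3d and Cd2 had log2 changes of -0.06 to 0.03 and did not pass. The mean level of the 5 measured T cell markers ran from 5.13 to 5.31 in cKO and from 5.12 to 5.16 in WT. The part of either cell type in the values of Lef1 was not tested.

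**Figure D3:**
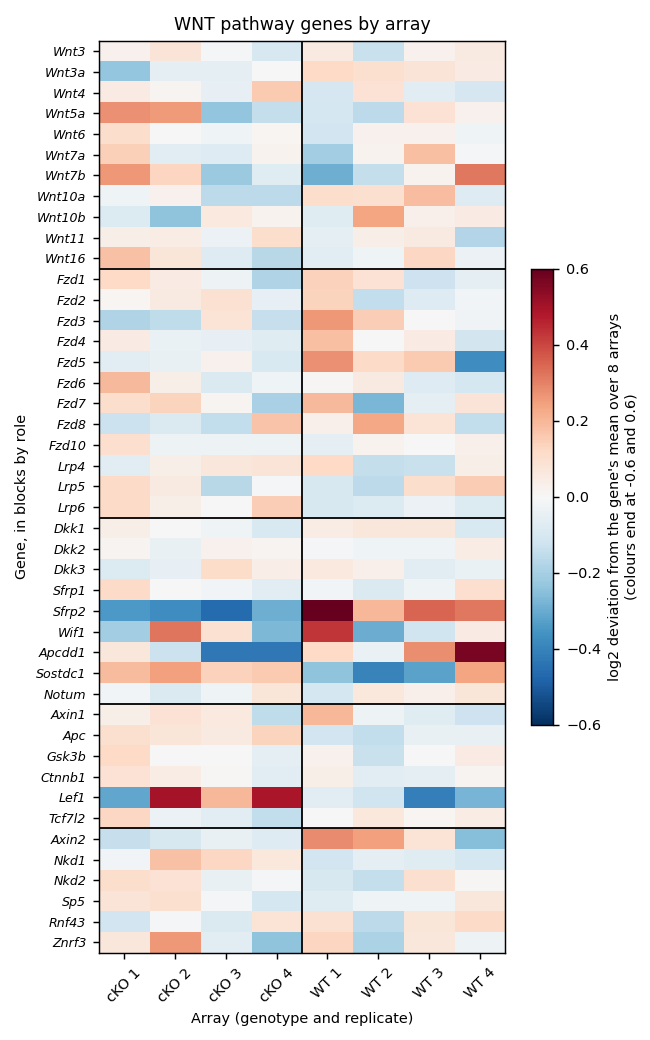
Deviation of each of the 44 genes (rows, in blocks of ligands, receptors, inhibitors, signal transduction and targets from top to bottom) from its own mean over the 8 arrays (columns), in log2 units, red above and blue below. Sfrp2 splits by genotype, while Lef1, Wif1, Apcdd1, Sostdc1 and Axin2 vary strongly between animals of a genotype.

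None of the 6 targets and feedback genes passed by limma, and 1 had an unadjusted p under 0.05, against 13.7% of all genes. Axin2, a direct target of beta-catenin that restrains the pathway, read 7.45, 7.49, 7.54 and 7.51 in cKO and 7.87, 7.83, 7.67 and 7.33 in WT. WT replicate 4 was the lowest of all 8 arrays, and the other WT arrays lay above every cKO array (log2 change -0.18, SE 0.11, limma adjusted p = 0.529). Without WT replicate 4 the log2 change was -0.29 and passed (limma adjusted p = 0.0324). Its second probe set had a log2 change of -0.22 (limma adjusted p among all probe sets = 0.580). Nkd1, a feedback inhibitor that acts on Dishevelled, read 6.63, 6.82, 6.77 and 6.71 in cKO and 6.53, 6.59, 6.57 and 6.54 in WT. All cKO arrays were above all WT arrays (log2 change 0.17, SE 0.06, limma adjusted p = 0.194). Its further probe sets had log2 changes of 0.03, 0.29 and 0.19, without a call. Axin2 and Nkd1, both targets of the beta-catenin branch, had changes of opposite sign, and neither passed with all arrays.

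Nkd2, the relative of Nkd1, read 5.41, 5.39, 5.26 and 5.29 in cKO and 5.21, 5.16, 5.40 and 5.31 in WT, with overlapping groups (log2 change 0.07, limma adjusted p = 0.737). Sp5, a transcription factor induced by beta-catenin, read 5.31, 5.33, 5.22 and 5.13 in cKO and 5.16, 5.21, 5.21 and 5.30 in WT (limma adjusted p = 0.935). Both lay close to the near-background limit. Rnf43 and Znrf3, ubiquitin ligases that remove Frizzled receptors from the cell surface, read 6.42 ± 0.09 and 7.51 ± 0.21 in cKO and 6.49 ± 0.13 and 7.49 ± 0.14 in WT (limma adjusted p = 0.814 and 0.985).

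The counts depended on single arrays. Without WT replicate 4, 3 of the 44 genes passed, namely Sfrp2, Axin2 and Sostdc1, where 4.66% of all genes passed in that fit. Without cKO replicate 1, Sfrp2 and Lef1 passed, beside 2.94% of all genes. In each of the other 6 fits without 1 array, Sfrp2 alone passed. WT replicate 4 was the array farthest from the WT median in 13 of the 44 genes, as was WT replicate 1, and in 30.2% of all genes. Among the cKO arrays, replicate 1 was the farthest from the cKO median in 15 of the 44 genes and in 36.1% of all genes. The median SD within a genotype was 0.10 over the members and 0.085 over all genes. Among the members it was widest for Lef1 in cKO (0.38) and for Wif1 in WT (0.31).

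**Figure D4:**
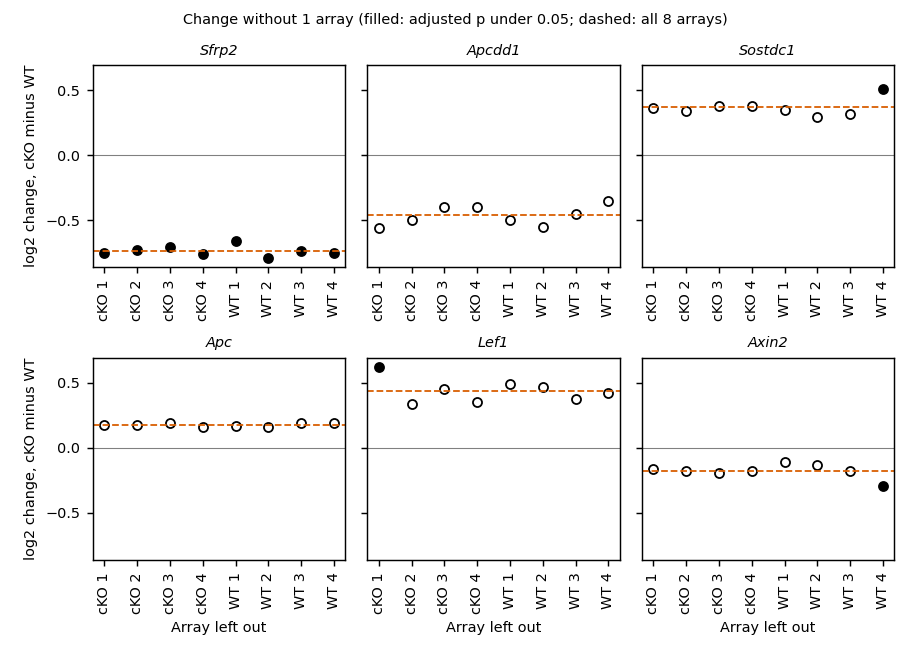
Log2 change (vertical axis, cKO minus WT) of 6 genes in the 8 fits that each leave out the array named on the horizontal axis; filled points have a limma adjusted p under 0.05, and the dashed line is the change with all 8 arrays. Sfrp2 is filled in all 8 fits, Sostdc1 and Axin2 only without WT replicate 4, Lef1 only without cKO replicate 1, and Apcdd1 and Apc in none.

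Beyond the 44 genes, 100 of 107 further listed WNT pathway genes were measured, of which 3 rose and 1 fell, against a background of 2.76% of all genes. Ctnnbip1, which encodes an inhibitor of the binding of beta-catenin to TCF factors, read 8.90, 9.04, 8.98 and 9.07 in cKO and 8.59, 8.72, 8.79 and 8.67 in WT. The groups did not overlap, and it rose 1.24-fold (SE 0.06 on the log2 scale, limma adjusted p = 0.0240). Its second probe set rose 1.46-fold (limma adjusted p among all probe sets = 0.0255). Ctnnbip1 passed in 3 of 8 fits without 1 array, with adjusted p up to 0.0973.

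Dlx3, a homeobox gene of the hair matrix that responds to WNT signals, read 7.78, 8.06, 7.92 and 7.80 in cKO and 7.41, 7.21, 7.36 and 7.51 in WT. It rose 1.43-fold without overlap (SE 0.08 on the log2 scale, limma adjusted p = 0.00867) and passed in 8 of 8 fits without 1 array. Its second probe set was also without overlap but did not pass (log2 change 0.18, limma adjusted p among all probe sets = 0.245). Msx2, a homeobox gene of the same cells, rose 1.17-fold (limma adjusted p = 0.0438) and passed in 1 of those 8 fits. Its second probe set, near background, had overlapping groups (log2 change 0.05, limma adjusted p among all probe sets = 0.651). With its probe sets averaged, Msx2 did not pass (log2 change 0.14, limma adjusted p = 0.105). Cd44, a hyaluronan receptor gene listed among targets of beta-catenin, fell 1.14-fold (limma adjusted p = 0.0470) and also passed in 1 of 8. Of its 3 further probe sets, 1 passed, with a fall of 1.26-fold (limma adjusted p among all probe sets = 0.0178).

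Of the 22 further transcriptional targets, which include Dlx3, Msx2 and Cd44, 8 (36.4%) had an unadjusted limma p under 0.05, against 13.7% of all genes. These 8 did not move in 1 direction. Hoxc13, Msx2 and Dlx3 had positive log2 changes, and all of them also belong to the list of hair germ and matrix markers. Myc, Cd44, Dact1, Jun and Fosl1 had negative ones. The list of further targets was also chosen with earlier results of these data known, so its share is a description and not a test. In the further lists of ligands, receptors and secreted inhibitors none passed by limma. Of 10 ligands and genes of their export, 1 had an unadjusted p under 0.05, Wnt8b near background (log2 change -0.11, limma adjusted p = 0.216), followed by Wnt5b with a log2 change of 0.32 (limma adjusted p = 0.481). Of 22 receptors and R-spondin genes 3 did, with the lowest p for the planar polarity genes Prickle1 (log2 change -0.13, limma adjusted p = 0.200) and Vangl2 (log2 change 0.21, limma adjusted p = 0.203). Of 11 secreted inhibitors 1 did, Shisa2 (log2 change 0.14, limma adjusted p = 0.283), followed by Dkk4 (log2 change -0.08, limma adjusted p = 0.620). Without WT replicate 4, 4 further genes that had not passed with all arrays fell, all of them listed targets, where 1.72% of all genes passed as lower in that fit. Jun had a log2 change of -0.25 with all arrays and -0.34 without that array, and Fosl1 one of -0.56 and -0.71. For Myc the changes were -0.43 and -0.58, and for Dact1 -0.37 and -0.49. Cd44 did not pass in that fit (limma adjusted p = 0.0601). Each of these 4 genes was lowest among the WT arrays in WT replicate 4, such as Fosl1 at 8.11 and Myc at 9.33. Jun also belongs to the immediate early list, in which WT replicate 4 lay within the cKO range. All 21 measured genes of that list had a log2 change below 0, with a median of -0.33. Of the 21, 17 (81.0%) had an unadjusted limma p under 0.05, against 13.7% of all genes. A link between that list and the fall of the listed targets was not tested.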

How the data were processed

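RNA of 8 samples (4 G9a cKO, 4 G9a WT, groups from the titles) was extracted with TRizol, amplified from 25 ng in 17 cycles and put on Affymetrix arrays, per the labels' protocols. The log2 values of 45141 probe sets were deposited after RMA by the authors, per the submitters' processing notes; the sources used here do not give its version or settings. Array medians lay between 5.87 and 5.95, and no normalization was added. Replicates were taken as separate animals, so p-values measure the spread between them.

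The platform annotation gave 28898 probe sets 1 gene symbol, 551 several and 15692 none here; the last 2 kinds were not named. The probe set with the highest mean represented each of 17097 genes, and 84 probe sets represented the 44 members. Groups were compared with limma 3.58.1 in R 4.3.3 (eBayes with trend, two-sided, no covariate), checked on simulated data. Adjusted p-values are over all genes, or over all probe sets where stated. The members and lists were chosen with earlier results of these data known. Values by array are given for Ehmt2, for members that passed or did not overlap, and for those with the lowest p up to 3 per role; other members described by array, the Sp5 promoter and the single markers named were chosen after their values were seen. Of each further list, genes that passed are named, or else the 2 with the lowest p. Alternatives were quantile normalization again, shifting arrays to a common median, leaving out dim probe sets, averaging a gene's probe sets, all probe sets, eBayes without trend, array weights, a replicate block, leaving out each array and a threshold of 0.1. Motifs were searched in RefSeq promoters of GRCm38.p6. The number of arrays limits the precision. Figures used matplotlib 3.10.9.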

Additional observations from a re-analysis of the deposited data

Results flagged for a closer look

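In 4 of 88 groups of 4 arrays (44 genes in 2 genotypes), 1 array stood far from the other 3 by Dixon's ratio, and chance alone gives about 1 in 20. Fzd3 read 9.47 in cKO replicate 3, above the other cKO arrays at 9.21 to 9.25. Fzd10 read 4.68 in cKO replicate 1, above the others at 4.55. Dkk1 read 4.48 in WT replicate 4, below the others at 4.62 to 4.64. Rnf43 read 6.30 in WT replicate 2, below the others at 6.53 to 6.57.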

How the results depend on the processing

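Over the 15 members and 4 further genes tested across the alternatives, all 321 log2 changes kept their direction. These genes were picked for passing, for not overlapping or for a low p, which favours a kept direction. Some members outside them did change direction, such as Fzd7 (-0.06 to 0.10) and Wif1 (-0.14 to 0.11). Several alternatives could not alter the estimate of a gene and bear only on its call. These were leaving out dim probe sets, testing all probe sets, eBayes without trend, the replicate block and the 0.1 threshold. Across all alternatives, 29 values lost a call, all among Ctnnbip1, Cd44, Msx2 and Dlx3, and 5 gained one. Sfrp2 passed in every alternative. The members that passed as higher numbered 0; 1 passed with array weights (Sostdc1) and 1 at an adjusted p under 0.1 (Apc), and leaving out 1 array gave 0 to 1 higher and 1 to 2 lower. Of the further genes 3 rose and 1 fell; array weights and the 0.1 threshold each gave 2 lower, eBayes without trend 0 lower, and leaving out 1 array 1 to 2 higher and 0 to 4 lower. Over all genes, 329 rose and 143 fell; the 0.1 threshold gave 497 and 247, array weights 249 lower, and leaving out 1 array 190 to 502 higher and 67 to 294 lower. The Ehmt2 probe set other than the one tested had a log2 change of -3.21. The cause of these shifts was not tested. Arrays with the same replicate number did not deviate together (correlations across genes -0.33, -0.27, -0.53 and 0.03), and 0 of 8 arrays correlated best with their own number. The labels do not say what the numbers stand for, and these correlations cannot settle it. With the replicate block, 191 genes rose and 77 fell, 0 of the further genes rose and 0 fell, and Sfrp2 passed alone among the members (limma adjusted p = 0.00870). The small number of arrays, and signal near background for 10 of the 44 members, limit what can be seen.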
